A study of Homo sapiens with 12 samples.

Results

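In human HepG2 hepatoma cells, 441 genes carried at least 10 regions each in a transcriptome-wide table of N6-methyladenosine (m6A) immunoprecipitation, and their 5412 regions were compared with one another within each transcript. The members were chosen by region number alone: after regions assigned to more than 1 gene were set aside, every region of every gene with 10 or more regions was kept. They made up 11.7% of all 46178 regions, of which 45261 name a single gene, and the genes were 3.53% of the 12491 genes named alone. The median number of regions was 11 for these genes and 3 for all genes named alone. At the edge of the rule stood 136 genes with exactly 10 regions, just inside, and 215 with exactly 9, just outside.

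HepG2 is an established cell line from a human liver tumour, and toosendanin is a triterpenoid from Melia plants that is toxic to liver cells. The stated aim of the study was to examine that toxicity in hepatoma cells. It holds 12 libraries in 4 groups of 3: m6A immunoprecipitates (IP) and matched input RNA from control cells and from cells treated with toosendanin, with no genetic change in any group. The sources used here do not give the dose, the length of treatment or the vehicle of the controls. They also do not tell whether replicate libraries were grown as separate cultures. All libraries come from 1 tumour cell line, so the values stand for that line and not for liver tissue.

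m6A is the most abundant internal base modification of messenger RNA. A nuclear writer complex with METTL3 and METTL14 deposits it, FTO and ALKBH5 can remove it, and YTH-domain proteins read it and affect splicing, export, translation and decay. It is known to collect around stop codons, in 3′ untranslated regions and in unusually long internal exons, so a long transcript can carry several separate methylated stretches. In the assay, fragmented RNA is pulled down with an antibody to m6A, and a stretch of transcript with more IP reads than its input predicts is taken as enriched.

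The deposited table gives 4 counts for each region, each summed over the libraries of a group, with a log2 fold change, a p-value and a false discovery rate (FDR) for the change of the IP over input ratio. Over all regions the sums came to 42316089 reads in control IP, 34131862 in control input, 29094328 in toosendanin IP and 24253006 in toosendanin input. The member regions held between 7.53% and 8.37% of each. A member region had a median of 123, 114, 93 and 87 reads in these sums, against 135, 126, 98 and 92 over all regions. At least 50 reads in each of the 4 sums were present in 3267 member regions (60.4%), which are called well counted here, against 60.7% of all regions. Because no value per library is given, every error beside an m6A value is a counting error and leaves out the spread between libraries. The deposited p-values do the same: for 99.7% of 5393 members the standard error they imply lay within 1% of the Poisson error of the 4 counts. The read counts printed for a region are raw sums, and the totals were lower after toosendanin in IP and input alike. The level of a region below is its log2 IP over input ratio relative to the ratio of the 2 totals, so that a level of 0 means the average ratio. Regions are named by their place in the listing of their gene. The positions and sequences of the regions were not used here.

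The genes with many regions had high read counts per gene. All 441 had an adjusted p in the authors' deposited DESeq2 table, with a median mean normalized count of 2518 against 426.4 over all genes tested there. That count is scaled by size factors and not by transcript length. Per region, the members had slightly fewer reads than all regions, as given above. HepG2 identity was checked in the same table. Albumin (ALB) had a mean normalized count of 161730, alpha-fetoprotein (AFP) 158750 and glypican 3 (GPC3) 81387, while PTPRC of blood cells and COL1A1 and DCN of fibroblasts were listed at 0. PECAM1 and VWF of endothelium were listed at 6.94 and 13.1, and CD68, which is also present in lysosomes of other cells, at 1426.

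Regions of 1 transcript differed widely in m6A enrichment in control cells. In 217 genes with at least 8 well-counted regions, the highest and the lowest region of a gene differed by a median of 3.04-fold in IP over input, from 1.58-fold in the flattest gene to 7.21-fold in the steepest. The range passed 2-fold in 200 of these genes and 4-fold in 48, and 193 had regions on both sides of the average ratio. The standard deviation (SD) of the level between the regions of a gene had a median of 0.53 (log2, range 0.22 to 0.94), beside a median counting error of 0.14. Over all well-counted regions of genes with at least 2 of them (3257 regions, 418 genes), 70.4% of the variance in control level lay between regions of the same gene and 29.6% between genes. The within-gene share was 68.4% for genes with 2 or 3 regions, 70.6% for 4 to 6 and 70.2% for 7 to 9, so it was close to that of genes with fewer regions. Of the members, 50.7% lay above the median control level of all regions, and their median level was -0.02 against -0.04.

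**Figure D1:**
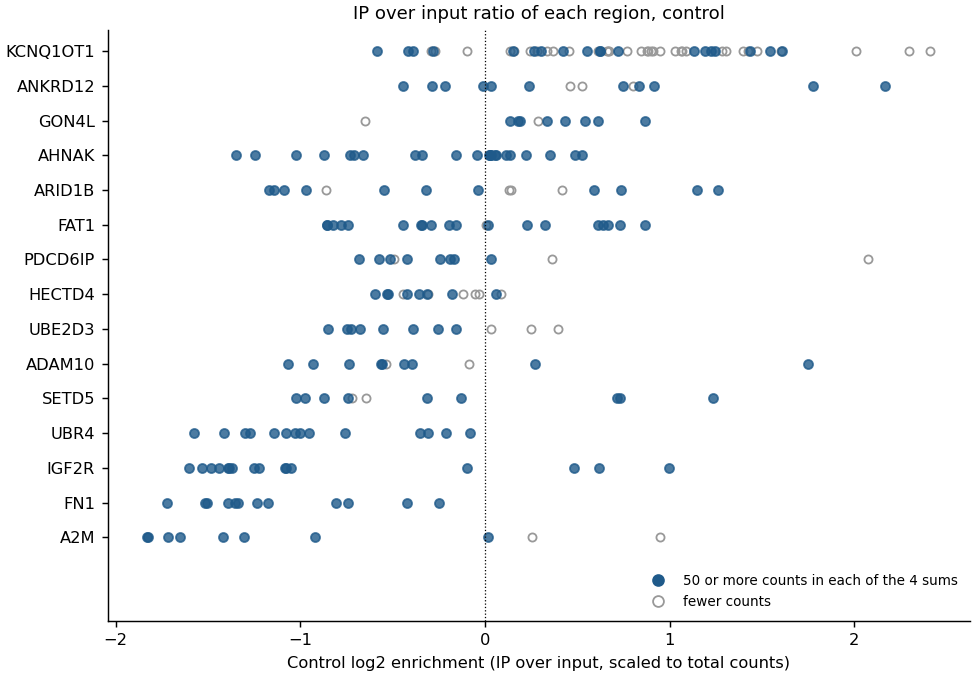
Control m6A level of every region (log2 IP over input relative to the total ratio, x axis) in named genes (y axis), each filled point 1 region with at least 50 reads in each of the 4 sums and each open point 1 with fewer; the dotted line marks the average ratio. Among filled points, ARID1B, ADAM10 and IGF2R spread over more than 2 log2 units, while HECTD4, PDCD6IP and UBE2D3 stay within 1.

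ADAM10, a membrane protease that sheds receptors and ligands, ranged 7.06-fold, from -1.07 in region 5 (258 IP and 437 input reads) to 1.75 in region 10 (281 and 67 reads). The IP outnumbered the input several-fold in 1 stretch of ADAM10 and fell well short of it in another.

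ARID1B, a DNA-binding subunit of the SWI/SNF chromatin remodelling complex, had the largest SD of level, 0.94, with region 9 at -1.17 and region 15 at 1.26. ANKRD12, which binds nuclear receptor coactivators, had its highest levels in region 5 (698 IP and 125 input reads, 2.17) and region 6 (3413 and 804 reads, 1.78), while its region 1 lay at -0.44. SETD5, a SET-domain protein of chromatin, ranged from -1.03 in region 8 to 1.23 in region 10. The 3 chromatin-related genes each held a few highly enriched regions beside regions at or under the average ratio.

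IGF2R, the receptor that carries mannose 6-phosphate-tagged enzymes and IGF2 to lysosomes, had 16 regions, all well counted, between -1.60 (region 2) and 0.998 (region 16). Region 12 alone took 65.8% of the gene's control IP reads and 37.0% of its input reads. In the median gene the largest region held 34.1% of control IP and 29.6% of control input reads. Fibronectin (FN1), a major secreted matrix protein of hepatocytes, had all 12 regions under the average ratio, from -1.72 to -0.25.

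At the other end, 4 genes were nearly flat. HECTD4, a large HECT-type ubiquitin ligase, ranged from -0.59 to 0.06, PDCD6IP, an ESCRT-associated protein, from -0.68 to 0.03, and UBE2D3, a ubiquitin-conjugating enzyme, from -0.85 to -0.16. GON4L, a chromatin-associated regulator, was flat at a higher level, from 0.14 to 0.86. Their SDs of level were between 0.22 and 0.25, with counting errors of 0.19 for HECTD4, 0.19 for PDCD6IP, 0.12 for UBE2D3 and 0.10 for GON4L.

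The genes with the most regions were mostly poorly counted per region. KCNQ1OT1, a long nuclear antisense RNA of an imprinted domain, had 53 regions, 19 of them well counted, with levels from -0.58 to 1.61. The library kit is stranded, but the sources used here do not tell whether the counting used strand, so its reads cannot be told from those of KCNQ1. DST, a giant linker of intermediate filaments and microtubules, had 36 regions, and its 25 well-counted ones ranged from -0.74 to 1.21. AHNAK, a giant scaffold protein, had 23 regions, all well counted, from -1.35 to 0.52. SYNE1 (29 regions) and SYNE2 (25 regions) encode nesprins, which tie the nuclear envelope to the cytoskeleton, and STARD9 (24 regions) encodes a mitotic kinesin. Their median control IP counts per region were 53, 60 and 40 reads. KCNQ1OT1 and DST had no called region, and an FDR was given for 2 SYNE1 regions, 1 SYNE2 region and 2 STARD9 regions, none of them called.

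The levels of a gene's regions were strongly correlated between control and toosendanin in most genes. Across the well-counted regions of a gene, Pearson's r between control and toosendanin level had a median of 0.90 over the 217 genes, given as a description, since regions of a gene share libraries and transcript. It was at least 0.8 in 176 genes and below 0.5 in 6. The most enriched region was the same in both conditions in 171 genes (78.8%), and the least enriched in 100 (46.1%). In IGF2R the r was 0.98 over 16 regions, and in ADAM10 0.97 over 9. The 6 genes below 0.5 were UBE2D3 (0.21), NPLOC4 (0.26), PDCD6IP (0.30), IL6ST (0.44), ZCCHC14 (0.47) and SMCHD1 (0.4998). UBE2D3 and PDCD6IP were also among the 4 genes with the smallest SD of control level. PDCD6IP, IL6ST and ZCCHC14 were among the 6 with the largest SD of log2 fold change.

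**Figure D2:**
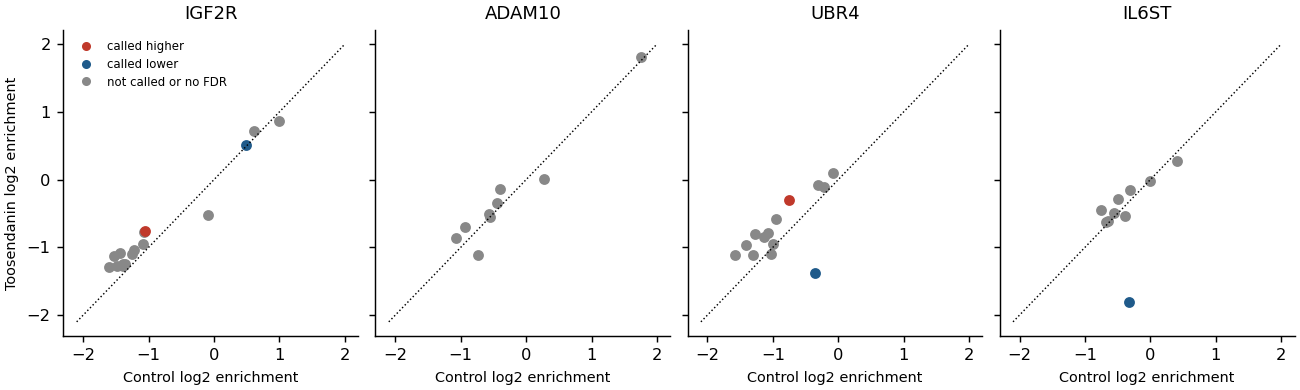
Control level (x axis) against toosendanin level (y axis), both log2 IP over input relative to the total ratio, for each well-counted region of IGF2R, ADAM10, UBR4 and IL6ST; the line marks equal levels, red points are called higher in the deposited table, blue points called lower and grey points neither. IGF2R and ADAM10 regions lie near the line over most of their range, while region 1 of IL6ST and region 1 of UBR4 lie far below it. Region 12 of IGF2R lies on the line although the deposited table calls it lower. The deposited fold changes are offset slightly from the ratios of the sums, and the plotted levels are also scaled to the total counts.

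Changes in enrichment were small, and their spread within a gene was mostly near the counting error or modestly above it. The median deposited log2 fold change of the member regions was -0.06, the same as over all regions, with quartiles of -0.29 and 0.17. Over the 217 genes, the SD of the log2 fold change between well-counted regions of a gene had a median of 0.24 (range 0.08 to 0.53), beside a median counting error of 0.21. It exceeded the gene's own counting error in 156 genes and did so by more than 1.5 times in 45. Of the variance in log2 fold change, 92.6% lay within genes and 7.38% between them, and the within-gene SD was 0.26, and 0.15 remained after the counting error of 0.21 was taken out. The change of the input alone was arranged the other way, with 71.8% of its variance between genes. Counting error falls within genes, and the 2 shares hold unlike amounts of it. It was 0.21 beside a total SD of 0.27 for the ratio, and 0.15 beside 0.42 for the input. The shares are therefore not directly comparable. Genes with fewer regions had a similar split, with 89.1% to 91.6% of the ratio's variance within genes. Of their input variance, 74.7% to 78.3% lay between genes.

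The authors' deposited table gives an FDR for 2716 of the 5412 member regions (50.2%) and for 53.5% of all regions. Member regions with an FDR had a median of 1256 reads over the 4 sums and those without had 182.5. At an FDR under 0.05, 207 member regions were called, 7.62% of those with an FDR, against 8.95% over all regions. Of these, 71 were called higher after toosendanin (2.61%, against 2.71% over all regions) and 136 lower (5.01%, against 6.24%). The genes of 10 regions had 8.61% called and those of 9 regions 8.27%. The members' share was near the background, so the calls are not a feature particular to genes with many regions. The median size of a called change was 0.34 in log2, and 15 of the 207 passed 2-fold, 3 higher and 12 lower.

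The split between higher and lower differed between the deposited values and a test on the summed counts. When the log2 ratio of ratios of the summed counts was centred on its median over all regions, tested against counting error and adjusted over all regions by Benjamini-Hochberg, 152 member regions were called, 101 higher and 51 lower. The same test without centring, chosen after seeing the data, called 155, 92 higher and 63 lower. Most of the difference from the deposited split was thus present before centring. The share of higher calls was 66.4% on the centred scale and 34.3% in the deposited table. Over all regions it was 62.0% and 30.3%. Of the deposited calls, 68 of 71 higher and 42 of 136 lower were also called on the centred scale. Centring the deposited fold changes would move all of them by 0.06, and the deposited value minus that of the sums ranged from -0.20 to 0.10 across member regions. Directions of small changes are therefore given relative to the authors' scale, with the centred call for some of the genes. Where no centred call is stated, none is implied.

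Called regions were scattered among the genes. A total of 313 genes had no called region, 83 had exactly 1 and 45 had at least 2. Among the 45, 18 had called regions in both directions, 6 only higher and 21 only lower. The 18 made up 40% of the genes with at least 2 calls, against 30.9% (84 of 272) for genes with fewer than 10 regions. The difference was not tested. Genes with more regions can hold more calls, and the groups were not matched for this.

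**Figure D3:**
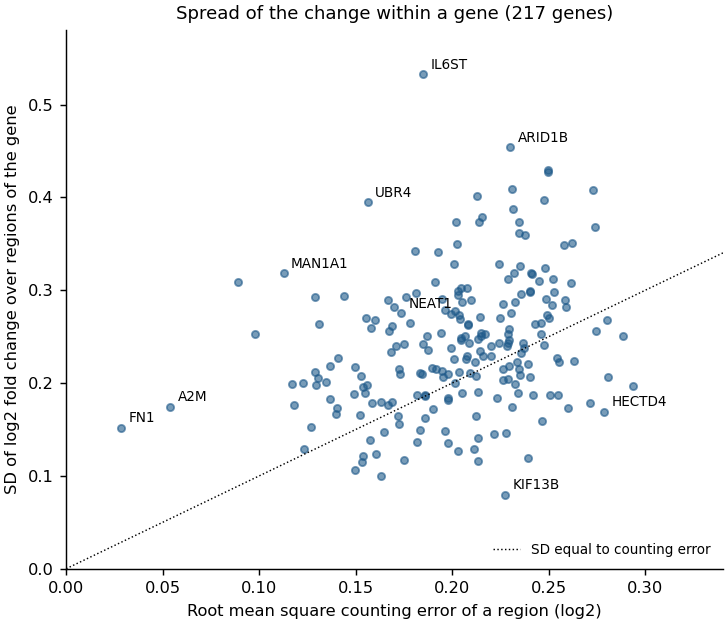
SD of the log2 fold change between well-counted regions of a gene (y axis) against the counting error of the same regions (x axis), 1 point for each of 217 genes; the line marks equality. Of the 217 genes, 156 lie above the line, and IL6ST has the highest SD, 0.53.

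In several genes 1 region departed from all the others. IL6ST encodes gp130, the shared receptor chain of interleukin 6-type cytokines, and had the largest SD of log2 fold change, 0.53. Its region 1 went from 837 IP and 847 input reads in control to 108 and 317 after toosendanin, so the level went from -0.33 to -1.81. The authors' deposited table lists that change as -1.62 ± 0.18 (counting error) with an FDR of 5.97e-18. The gene's other regions with an FDR had log2 fold changes between -0.20 and 0.26 there, and none was called. In IL6ST region 1 the input count itself fell more than in the rest of the gene: relative to the totals, its input changed by -0.92 in log2 and its IP by -2.41, while the summed input of the whole gene changed by -0.36.

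UBR4, TMEM184A and ZCCHC14 also held a well-counted region with a called change of more than 2-fold. UBR4 encodes a giant ubiquitin ligase that recognises destabilising protein ends. Its region 1 had 191 IP and 197 input reads in control and 91 and 198 after toosendanin, and is listed at -1.17 ± 0.23 in the authors' deposited table (FDR 3.55e-05). ZCCHC14, a zinc-knuckle RNA-binding protein, had region 2 at 387 and 429 reads in control and 121 and 266 after toosendanin, listed at -1.08 ± 0.19 in the authors' deposited table (FDR 6.63e-07). TMEM184A, a membrane protein, had region 8 at 491 and 201 reads in control and 156 and 135 after toosendanin, listed at -1.14 ± 0.21 in the authors' deposited table (FDR 3.47e-06). Relative to the totals, the IP changed by -0.53 in log2 in the UBR4 region, -1.13 in the ZCCHC14 region and -1.11 in the TMEM184A region. The input changed by 0.50 in the UBR4 region, -0.20 in the ZCCHC14 region and -0.08 in the TMEM184A region.

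The other called changes past 2-fold rested on fewer reads. H6PD, which makes NADPH in the endoplasmic reticulum, had region 1 at 115 IP and 183 input reads in control and 18 and 80 after toosendanin, with a deposited log2 fold change of -1.57 ± 0.41. SYNJ2, a phosphoinositide phosphatase, had region 1 at 190 and 243 reads in control and 36 and 113 after toosendanin, deposited at -1.39 ± 0.31. PPIP5K2, an inositol pyrophosphate kinase, held the largest higher call, with region 4 at 75 and 119 reads in control and 79 and 45 after toosendanin, deposited at 1.47 ± 0.34. Relative to the totals, its input changed by -0.90 in log2 and its IP by 0.61. PLCB1, a phospholipase of G-protein signalling, held the lowest, region 14, at 38 and 16 reads in control and 10 and 20 after toosendanin, deposited at -2.26 ± 0.69.

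Both directions within 1 transcript were called in 18 genes. The gap between the highest and the lowest called region of a gene had a median of 0.88 in log2 and ran from 0.30 to 2.14. Since the genes were picked for these calls, the gaps and their counting 95% intervals are a description. On the centred scale 6 genes held calls in both directions. The widest gap, 2.14 (95% interval 1.32 to 2.95), was in ARFGEF1, an exchange factor for ARF GTPases at the Golgi. Its region 1 had 196 IP and 152 input reads in control and 27 and 54 after toosendanin, with a deposited log2 fold change of -1.45 ± 0.37 (FDR 0.00292). Its region 6 had 249 and 326 reads in control and 241 and 194 after toosendanin, deposited at 0.69 ± 0.18 (FDR 0.00493). The ARFGEF1 region with the most reads, region 3, was deposited at -0.04.

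In UBR4 the region with the lower call was listed next to the one with the higher call. Region 2 had 1050 IP and 1435 input reads in control and 1370 and 1411 after toosendanin, so its level went from -0.76 to -0.31, with a deposited log2 fold change of 0.38 ± 0.08 (FDR 8.80e-05). The gap between UBR4 regions 1 and 2 was 1.55 (1.07 to 2.03), and both calls were also made on the centred scale.

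**Figure D4:**
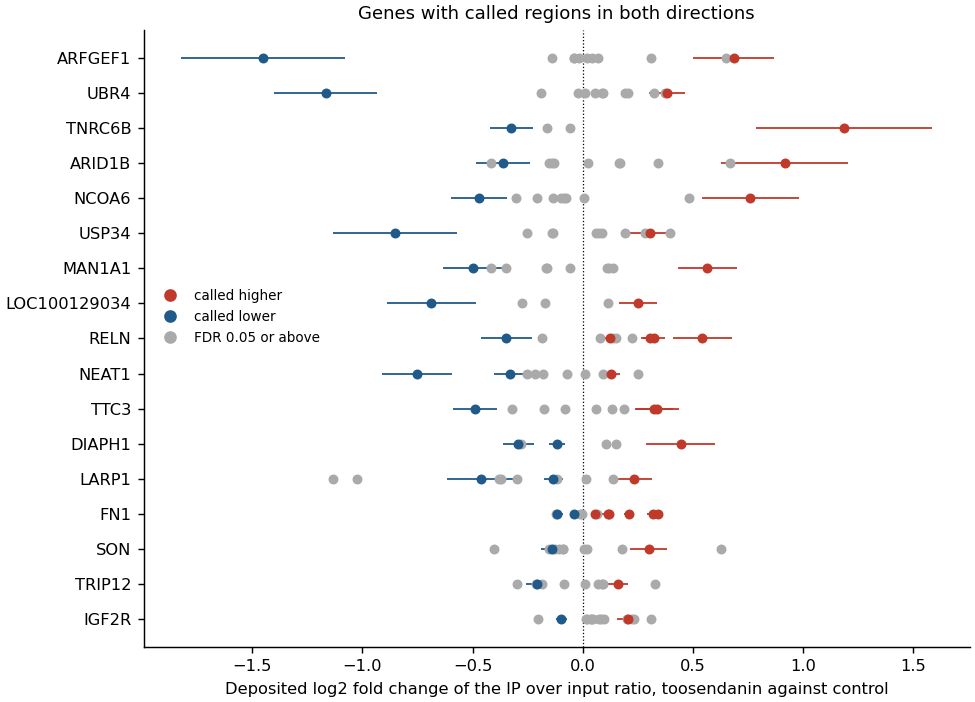
Deposited log2 fold change (x axis; positive means a higher IP over input ratio after toosendanin) of every region with an FDR in the genes with called regions in both directions (y axis; 1 of them is not shown); red points are called higher and blue points lower at FDR under 0.05 with bars of 1 counting standard error, and grey points are not called. The called regions of ARFGEF1 and UBR4 are farthest apart, and those of IGF2R are 0.30 apart.

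Regulators of chromatin and RNA were among the widest gaps. TNRC6B, a scaffold of microRNA silencing, had a gap of 1.51 (0.70 to 2.32), between region 2 with 1862 IP and 653 input reads in control (1374 and 585 after toosendanin) and region 8 with 49 and 71 (60 and 38). Neither TNRC6B call was made on the centred scale. ARID1B had a gap of 1.28 (0.66 to 1.89), with region 5 going from 110 and 174 reads to 89 and 70 (deposited 0.92 ± 0.29) and region 10 from 869 and 719 to 421 and 422 (deposited -0.36 ± 0.12). NCOA6, a nuclear receptor coactivator, had a gap of 1.23 (0.74 to 1.73), with region 14 going from 140 and 260 reads to 161 and 171 (deposited 0.76 ± 0.22) and region 6 from 802 and 434 to 560 and 401 (deposited -0.47 ± 0.13). In ARID1B and NCOA6 the higher-called region was the one with the lower control level, and only the higher call of each was also made on the centred scale.

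USP34, a deubiquitinase, had a gap of 1.16 (0.57 to 1.74) between region 8, which went from 908 IP and 1143 input reads to 690 and 701 (deposited 0.31 ± 0.10), and region 11, from 207 and 115 to 81 and 81 (deposited -0.85 ± 0.28). MAN1A1, a Golgi mannosidase that trims N-glycans, had a gap of 1.06 (0.69 to 1.44). Its region 10 went from 341 IP and 634 input reads to 431 and 535 (deposited 0.57 ± 0.13), and its region 2 from 534 and 921 to 242 and 555 (deposited -0.50 ± 0.14). The dominant MAN1A1 region, region 3, with 20144 IP and 8705 input reads in control and 12518 and 5371 after toosendanin, was deposited at -0.06 and not called. LOC100129034, a transcript with no protein assigned to it in the name, had a gap of 0.94 (0.51 to 1.37) between region 9 at 0.25 ± 0.08 and region 8 at -0.69 ± 0.20 in the authors' deposited table. In USP34, MAN1A1 and LOC100129034 only the higher call was also made on the centred scale.

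Very deeply counted genes of the liver cell had calls at small sizes. FN1 had 12 regions with an FDR, 6 called higher and 2 lower, over a gap of 0.45 (0.39 to 0.52). Its region 9 went from 25364 IP and 67530 input reads to 15411 and 31130, a level of -1.72 and then -1.28, deposited at 0.34 ± 0.02 (FDR 1.53e-78). Its region 12, with 149344 IP and 161554 input reads in control and 68044 and 73409 after toosendanin, is called lower at -0.04 in the authors' deposited table (FDR 0.000944). On the centred scale FN1 region 12 lay at 0.02 and was not called, the 1 deposited call of all members that took the other sign there, and FN1 had 6 higher and 0 lower calls. FN1 expression fell by 0.63 ± 0.04 in log2 (adjusted p 6.08e-53, authors' deposited DESeq2 table).

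NEAT1, the long noncoding RNA that builds nuclear paraspeckles, had regions 1 and 2 called lower and region 4 called higher. Region 1 went from 256 IP and 395 input reads to 247 and 604 (deposited -0.75 ± 0.16), and region 4 from 3483 and 3706 to 6450 and 6124 (deposited 0.13 ± 0.04). NEAT1 expression rose by 0.99 ± 0.11 in log2 (adjusted p 4.13e-19, authors' deposited DESeq2 table). Relative to the totals, the input of region 1 changed by 1.11 in log2 and its IP by 0.49. RELN, the secreted glycoprotein reelin, had 4 regions called higher and 1 lower, over a gap of 0.89 (0.55 to 1.23). The smallest gap, 0.30 (0.20 to 0.41), was in IGF2R, between region 3 (2709 IP and 4520 input reads in control, 3665 and 5193 after toosendanin, deposited 0.20 ± 0.05) and region 12 (18501 and 10676 in control, 18394 and 10816 after, deposited -0.10 ± 0.02). On the centred scale IGF2R had 2 higher and 0 lower calls. FN1, NEAT1, RELN and the genes past 2-fold outside the naming rule were chosen after their values were seen.

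A2M had the most calls in 1 direction. It encodes alpha-2-macroglobulin, a plasma protease inhibitor made by the liver. Of its 10 regions, 8 had an FDR and regions 4 to 10 were all called higher, between 0.14 and 0.48 in the authors' deposited table, and all 7 were also called higher on the centred scale. Region 4 went from 3624 IP and 10367 input reads to 4530 and 8908, a level of -1.83 and then -1.24 (deposited 0.48 ± 0.04). Region 7, with the most reads, went from 34332 and 52355 to 31162 and 40802 (deposited 0.18 ± 0.01). The 7 called A2M regions had control levels from -1.83 to -0.92, all under the average ratio. Region 3, with 689 IP and 549 input reads in control and 431 and 348 after toosendanin, was deposited at -0.04 and not called. A2M expression had a log2 fold change of 0.16 ± 0.07, with an adjusted p of 0.0686 (authors' deposited DESeq2 table), so its change did not pass the test.

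TAOK1 and AIG1 followed with 2 higher calls each and none lower, and both kept these on the centred scale. TAOK1, a kinase of stress signalling, had region 6 going from 124 IP and 185 input reads to 112 and 95 (deposited 0.81 ± 0.26) and region 10 from 68 and 101 to 72 and 49 (deposited 1.11 ± 0.35). Its dominant region 2, with 6589 and 3808 reads in control and 4599 and 2549 after toosendanin, was deposited at 0.04. AIG1, a membrane hydrolase of fatty acid esters, had region 7 going from 1366 and 1041 reads to 1180 and 658 (deposited 0.44 ± 0.09) and region 10 from 1781 and 1291 to 1419 and 843 (deposited 0.28 ± 0.08).

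Lower calls were most numerous in FAT1, AHNAK and ARID1A. FAT1, a giant cadherin, had 5 lower calls among 20 regions, in regions 1, 2, 8, 12 and 20, between -0.34 and -0.21 in the authors' deposited table. Region 2, its largest called region, went from 9100 IP and 4620 input reads to 5803 and 3340. AHNAK had 5 lower calls in regions 4, 7, 8, 19 and 22, between -0.37 and -0.22 in the authors' deposited table, and region 8 went from 5247 and 4162 reads to 4342 and 3892. ARID1A, the paralogue of ARID1B in SWI/SNF, had 4 lower calls in regions 2, 3, 6 and 14, at -0.71, -1.28, -0.40 and -0.20 in the authors' deposited table. On the centred scale FAT1 kept 3 lower calls, AHNAK 2 and ARID1A 0.

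Genes with steep control profiles varied in their calls. ARID1B and IGF2R held called regions in both directions, as given above. In SETD5, region 10, the most enriched, went from 1010 IP and 346 input reads to 543 and 249, a level of 1.23 and then 0.86 (deposited -0.47 ± 0.14), and region 11 was deposited at -0.40 ± 0.13. Neither SETD5 call was made on the centred scale. ADAM10 and ANKRD12 had no called region. ADAM10 region 10 had a level of 1.75 in control and 1.81 after toosendanin, and ANKRD12 region 5 had 2.17 and 1.90.

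The direction of change went with a region's place in its own transcript's ranking by enrichment. For the 217 genes, each gene's well-counted regions were divided into a lower, a middle and an upper group by their mean level over both conditions. The lower group (662 regions) had a median deposited log2 fold change of 0.05, with 24 regions called higher and 10 lower of 450 with an FDR. The middle group (756 regions) had -0.00, with 18 higher and 20 lower of 562. The upper group (814 regions) had -0.09, with 19 higher and 69 lower of 716. On the centred scale the calls were 32 higher and 5 lower, 26 and 8, and 23 and 18, so lower calls were a larger part of the calls in the upper group on both scales. Genes with fewer than 10 regions had the same order, with medians of 0.01, -0.02 and -0.08. This is a description without a test, since the same counts enter both the ranking and the change. When the ranking used the control level only, which shares the control counts with the change, the medians were 0.11, -0.02 and -0.12.

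**Figure D5:**
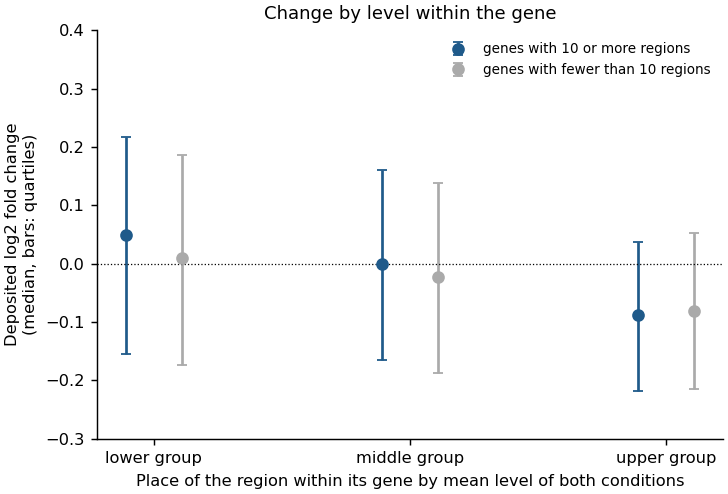
Deposited log2 fold change (y axis) of well-counted regions in the lower, middle and upper group of their gene's regions by mean level (x axis), for genes with 10 or more regions (blue) and fewer (grey); points are medians and bars span the quartiles. The medians go from 0.05 to -0.00 and -0.09 in the genes with 10 or more regions.

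The called regions show the same relation across genes. Member regions called higher had a median control level of -0.94 and those called lower 0.47, against -0.91 and 0.36 over all called regions. The control counts enter both quantities here too.

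Functional lists of long genes gave the following counts, to be read against 2.71% called higher and 6.24% called lower of all regions with an FDR. These counts are on the authors' scale. The liver secretory, lipoprotein and matrix list had 6 members (LRP1, LRP6, FN1, A2M, ACACA and IGF2R) with 78 regions, 61 with an FDR, of which 15 were called higher and 3 lower. Of the 15, 7 were in A2M and 6 in FN1, 1 was in IGF2R and 1 in ACACA, the rate-limiting enzyme of fatty acid synthesis, whose region 7 went from 234 IP and 353 input reads to 233 and 238 (deposited 0.54 ± 0.18). Their median control level was -0.91, the lowest of the 10 lists, and their median log2 fold change 0.04. Their called share therefore rests on 2 genes.

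Chromatin regulators were the list with the most members, 23 genes with 327 regions. Of 184 regions with an FDR, 2 were called higher and 14 lower, in 9 genes. The median log2 fold change was -0.09, against -0.06 over all regions. The calls of ARID1A and the lower calls of ARID1B and NCOA6 were not made on the centred scale. Nor were those of EP300, EP400, KDM3B and ANKRD11, or of CREBBP regions 5 and 11. Most of the lower calls of this list were thus made on the authors' scale only. Beside ARID1A, ARID1B and NCOA6, ANKRD11 stood out for evenness: its SD of log2 fold change was 0.11. Its region 5, with 59855 IP and 23167 input reads in control and 34421 and 13920 after toosendanin, was called lower at -0.11 ± 0.02 in the authors' deposited table (FDR 5.63e-08), and the gene had 1 higher and 0 lower calls on the centred scale. KMT2C and KMT2D, histone methyltransferases of enhancers, had the most regions of the list, 23 and 21. Their well-counted regions ranged in control level from -0.95 to 1.05 and from -1.06 to 0.71, and neither gene had a called region.

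Cytoskeletal giants, motors and linkers had 15 members with 264 regions. Of 144 with an FDR, 2 were called higher and 11 lower, in 7 genes, AHNAK holding 5 of the 11. On the centred scale AHNAK kept 2 of its 5, and the lower calls of DYNC1H1, PLEC and SPTAN1 were not made. UBR4 was also on the ubiquitin ligase list and CENPE on the mitosis list, so the calls of UBR4 counted in both of its lists. Membrane adhesion and signalling receptors had 3 members, FAT1, PLXNA1 and APC, with 5 lower calls of 27 regions with an FDR, all in FAT1. FAT1 kept 3 of them on the centred scale. The zinc finger and homeobox transcription factors had 6 members with 2 lower calls of 31, 1 of them in ZNF292, a large zinc finger protein, whose region 3 went from 1251 IP and 335 input reads to 1194 and 415 (deposited -0.38 ± 0.12). Their median control level was 0.33. The ZNF292 call and the other lower call of this list, in RERE, were not made on the centred scale.

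Giant ubiquitin ligases had 11 members with 159 regions, and of 93 with an FDR 4 were called higher and 3 lower. TRIP12, a HECT-type ligase, had region 4 called lower and region 9 called higher, 0.37 apart. RNF213 (22 regions) and HUWE1 (18 regions) had the most regions of this list and no called region, with well-counted control levels from -0.85 to 0.46 and from -1.43 to 0.31. On the centred scale HUWE1 had 1 higher call. RNA and translation machinery had 7 members with 5 higher and 3 lower calls of 64. CNOT1, the scaffold of the CCR4-NOT deadenylase, had regions 3 and 5 called higher, going from 488 IP and 897 input reads to 441 and 577 (deposited 0.46 ± 0.12) and from 982 and 1433 to 843 and 971 (deposited 0.33 ± 0.09). DICER1, which cuts microRNA precursors, had region 7 called lower, from 1836 and 1019 reads to 1078 and 743 (deposited -0.33 ± 0.09).

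The PI3K-like kinases had 4 members, PRKDC, MTOR, SMG1 and TRRAP, with 0 called of 30 regions with an FDR. MTOR, the growth-control kinase, ranged in control level from -1.42 to 0.42 over 12 well-counted regions and had 1 higher call on the centred scale. The vesicle, lipid transport and lysosome list had 6 members, among them VPS13B and VPS13D, with 0 called of 27. SMG1 has near-identical copies in the genome that can share its reads. The median log2 fold changes of the kinase list and the vesicle list were 0.05 and 0.10, beside -0.06 over all regions.

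The mitosis and replication list had 66 regions, 31 with an FDR. All 6 members (ASPM, CENPE, TOP2A, NUMA1, RIF1 and BRCA1) fell in the authors' deposited DESeq2 table, and 1 of the 31 regions was called, higher. CENPE, a mitotic kinesin, fell by 4.28 ± 0.21 in log2 (adjusted p 9.60e-89, DESeq2), ASPM, a spindle pole protein, fell by 3.96 ± 0.15 (adjusted p 2.95e-149, DESeq2), and TOP2A, the DNA topoisomerase of dividing cells, fell by 3.76 ± 0.07. ASPM regions had 34 to 663 control IP reads with a median of 176.0, and 1 to 41 with a median of 8 after toosendanin. Its input went from a median of 87 to 3.5 reads. CENPE went from a median of 114.5 to 7 IP reads and from 53.5 to 4 input reads. At these depths a change of the ratio was not detectable in most regions of ASPM and CENPE. TOP2A, with a median of 575 control IP and 715 control input reads, kept 29.5 and 42.5 after toosendanin, and 0 of its 8 regions with an FDR were called.

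Expression of the member genes changed in 194 of 441 (44.0%), 99 higher (22.4%) and 95 lower (21.5%), by the authors' deposited DESeq2 adjusted p under 0.05, against 31.4% of all genes tested, 15.7% higher and 15.7% lower. The members' median mean count was well above that of all genes, which bears on how many pass the test, and its part in the share was not tested. The largest rise was in DNAH17, an axonemal dynein heavy chain, at 3.17 ± 0.12 in log2, whose summed input went from 158 to 932 reads over 12 regions, none with an FDR. EPPK1, an epithelial plakin, rose by 1.75 ± 0.08 and COL16A1, a fibril-associated collagen, by 1.75 ± 0.13 in the authors' deposited DESeq2 table. BRCA1, of homologous recombination, fell by 1.60 ± 0.27, ARID5B fell by 1.57 ± 0.16 and KNL1, a kinetochore scaffold, fell by 1.44 ± 0.13 there. None of EPPK1, COL16A1, BRCA1, ARID5B and KNL1 had a called region. Across the member genes, the change of the summed input over a gene's regions and the deposited expression change had r of 0.94, and both come from the same input libraries if the authors used those for expression, which the sources used here do not state.

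Of the 128 genes with a called region, 56 (43.8%) had changed expression, near the 44.0% of all members. Of the 18 genes with regions called in both directions, 8 had changed expression, among them FN1, RELN, NEAT1, IGF2R, UBR4, ARID1B and USP34. UBR4 expression rose by 0.40 ± 0.05 (adjusted p 2.55e-14) and IGF2R expression by 0.64 ± 0.04 (adjusted p 7.12e-51) in the authors' deposited DESeq2 table. In IL6ST expression fell by 0.42 ± 0.14 (adjusted p 0.0123, authors' deposited DESeq2 table). FAT1, with 5 lower regions, was listed at -0.06 ± 0.05 and did not pass.

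Place in the listing carried a difference in level. The first listed region of the 441 genes had a median control level of -0.16, the last 0.19 and the regions between them -0.03, and the last lay above the first in 298 genes, by a median of 0.35. Among well-counted regions the medians were -0.27, -0.04 and -0.23. Of the first listed regions with an FDR, 4 were called higher and 14 lower of 250 (7.20%), of the last, 5 and 16 of 212 (9.91%), and of those between, 62 and 106 of 2254 (7.45%), all near the 8.95% over all regions. Neighbours in the listing were closer in level than other pairs of the same gene, with a median difference of 0.51 against 0.62, and closer in 162 of 217 genes. For the log2 fold change the values were 0.24 and 0.27, closer in 148 of 217 genes. The sources used here do not tell how the listing order relates to position along the transcript.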

How the data were processed

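m6A immunoprecipitates and inputs of control and toosendanin-treated HepG2 cells (3 libraries in each of 4 groups, 12 in all) were analysed from 2 tables. The deposited m6A table holds, per the file headers, read counts per region that the authors summed within each condition, with the authors' log2 fold change, p-value and FDR. Tool, peak caller and build: not given in the sources used here. The deposited expression table holds, per the file headers, the authors' mean normalized count (a signal scaled by size factors), a log2 fold change and its error, p-values, and the Wald score, with the column names of DESeq2. HISAT2, StringTie and DESeq are named, without versions, in the submitters' processing notes. UMI-labelled stranded libraries were made, per the labels' protocols.

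Rows naming several genes (917) were dropped, and genes with at least 10 regions kept. Levels are log2((IP + 0.5)/(input + 0.5)) minus that of the totals. An edgeR test over libraries had been foreseen, but the counts are sums, so the deposited FDR under 0.05 was used. The centred test divided the log2 ratio of ratios, centred on its median over all regions, by its Poisson error, with Benjamini-Hochberg adjustment over all regions. It was tried on simulated Poisson counts, the error that it assumes. These hold no spread between libraries, so the trial cannot tell how often such spread gives false calls. The scripts ran under scipy 1.17.1, pandas 2.3.3, numpy 2.4.6 and Python 3.11.15. Intervals cover counting error only.

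Named genes were those with the most regions, the largest or smallest within-gene SDs, the widest gaps between called regions of opposite direction, the most calls in 1 direction, and up to 2 genes with the most regions from each of 10 lists, 52 in all, of which a few are not reported here. The members and lists were chosen with earlier results of these data known. Names matched a reference symbol or older symbol for 440 of 441 genes. For 15 genes with near-identical copies or antisense transcripts (219 regions, 6 called) reads may be shared. Columns of single libraries that were not used numbered 0.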

Additional observations from a re-analysis of the deposited data

How the results depend on the processing

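Counts of calls moved with the threshold and with the number of regions a gene had to have. Of the 207 called regions, 104 passed an FDR under 0.01 and 15 were also at least 2-fold, while genes with at least 8 regions held 406 called regions and genes with at least 15 held 38. The 18 genes called in both directions became 8 at an FDR under 0.01, 0 at 2-fold, 32 with at least 8 regions, 4 with at least 15, 6 on the centred scale and 8 on the scale of summed counts without centring, an alternative chosen after seeing the data. Well-counted regions alone gave 196 called regions and 16 genes with both directions, and leaving out the 15 genes with near-identical copies or antisense transcripts, also chosen after seeing the data, gave 201 and 18. In the test on summed counts, called regions numbered 152 (101 higher, 51 lower) when centred and 155 (92 higher, 63 lower) when not.

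The median within-gene SD of the log2 fold change over all regions was 0.39, and 0.24 over well-counted regions and 0.41 for genes with at least 15 regions. The median within-gene SD of the control level was 0.55, and 0.52 both over well-counted regions and in the toosendanin libraries. The median log2 fold change of -0.057 became -0.0393 over well-counted regions, -0.0792 with at least 15 regions, 0.0297 for summed counts scaled to totals and 0.00514 when centred. The share of regions above the all-region median went from 50.7% to 53.9% with at least 15 regions. Expression changed by at least 2-fold in 16 of the 194 called genes.

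No paired analysis was possible because the counts are sums over libraries and carry no replicate numbers. Leaving out each replicate was not run, as the table holds no value per library. Member regions without an FDR had a median of 182.5 reads over the 4 sums.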

Other observations

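Some genes with many regions lay outside the named groups. Among genes with at least 8 well-counted regions, MBNL3, a splicing regulator, had an SD of log2 fold change of 0.43, while KIF13B, a kinesin, had 0.08 and CSNK2A1, the catalytic subunit of casein kinase 2, 0.12.

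ZBTB20 and ZNF445, both zinc finger repressors, are listed with expression changes of 1.504 ± 0.75 and 1.14 ± 0.80 in the authors' deposited DESeq2 table (adjusted p 0.116 and 0.306), while their input reads summed over their regions went from 233 to 177 and from 1533 to 988, changes of 0.10 and -0.14 in log2 relative to the totals. Among the 217 genes with at least 8 well-counted regions, the change of the input differed most between the regions of TACC1, a centrosomal coiled-coil protein, with an SD of 0.75 in log2.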
